A study of Homo sapiens with 2 samples.

Results

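Gene deserts are the long stretches of the genome that hold no protein-coding gene. Here they were taken as all positions outside every protein-coding gene and farther than 100 kb from any end of one, in the RefSeq annotation of GRCh38. In these deserts lay 6459 of 61694 RUNX2 peaks (10.5%, 95% exact interval 10.2% to 10.7%) and 3717 of 42673 MTA1 peaks (8.71%, 8.44% to 8.98%), which made 10176 of 104367 peaks on chromosomes 1 to 22 and X. A peak was assigned by its centre, whatever its score, so neither the score nor the width took part in the choice.

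The peaks came from untreated cells of the established breast cancer line MDA-MB-231, which lacks hormone receptors and HER2 amplification, profiled by CUT&Tag, in which an antibody guides a transposase to the chromatin that carries its target. There was 1 library with an antibody against RUNX2 and 1 with an antibody against MTA1 and without a replicate. A control library was not analysed here. No test across samples could therefore be made, and each interval given below covers counting error over peaks only. Reads and depth are unknown, and a peak missing from a list may be a signal below the threshold of that library.

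Many gene deserts flank genes of development and growth, and some hold enhancers that act on such a gene over long distances. RUNX2 is the Runt-family transcription factor of bone and cartilage formation, and Runt factors recognise the letters TGTGGT, which read ACCACA on the other strand. MTA1 is a subunit of the NuRD complex, which couples nucleosome remodelling to histone deacetylation, and it reaches DNA with partner proteins rather than through a motif of its own. Deserts also hold long noncoding RNA genes, and the promoters of these are where sequence and peaks could be set side by side.

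RefSeq promoter windows reach from 250 bases before to 50 bases after a transcript start, and 2909 of them had their centre in a desert, all of long noncoding RNAs. A RUNX2 peak overlapped 80 of these windows, and in 21 of the 80 the letters TGTGGT or ACCACA lay inside that peak. The following 4 of the 80 are shown because the letters lie inside the peak in the first 3 and are missing from the fourth. Each is written 5′ to 3′ on the strand of its gene (RefSeq, GRCh38.p14), and capitals mark the letters searched.
LINC00706: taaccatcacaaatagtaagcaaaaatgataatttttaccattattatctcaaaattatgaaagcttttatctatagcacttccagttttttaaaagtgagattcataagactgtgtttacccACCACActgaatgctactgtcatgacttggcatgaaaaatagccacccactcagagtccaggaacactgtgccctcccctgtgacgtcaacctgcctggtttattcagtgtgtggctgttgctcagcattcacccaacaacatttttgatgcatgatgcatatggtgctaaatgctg
LOC105376233: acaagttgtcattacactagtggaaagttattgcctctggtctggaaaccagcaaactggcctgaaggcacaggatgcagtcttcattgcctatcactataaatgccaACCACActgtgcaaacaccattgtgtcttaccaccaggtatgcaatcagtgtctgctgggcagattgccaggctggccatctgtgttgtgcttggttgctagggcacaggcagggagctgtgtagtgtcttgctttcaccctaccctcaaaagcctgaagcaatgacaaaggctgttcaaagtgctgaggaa
LOC105378072: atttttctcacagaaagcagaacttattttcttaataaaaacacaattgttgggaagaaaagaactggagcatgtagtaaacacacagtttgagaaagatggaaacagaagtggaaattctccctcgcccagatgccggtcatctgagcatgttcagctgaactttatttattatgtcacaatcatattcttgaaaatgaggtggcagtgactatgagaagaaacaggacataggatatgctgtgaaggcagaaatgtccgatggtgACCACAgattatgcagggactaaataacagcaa
LINC03108: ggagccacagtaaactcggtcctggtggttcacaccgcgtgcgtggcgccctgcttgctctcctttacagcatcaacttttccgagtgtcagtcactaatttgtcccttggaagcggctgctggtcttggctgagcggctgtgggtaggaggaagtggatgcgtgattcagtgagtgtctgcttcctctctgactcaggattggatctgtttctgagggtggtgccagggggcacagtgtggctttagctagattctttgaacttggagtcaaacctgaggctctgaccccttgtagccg

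The LINC00706 window (chr10:6779131-6779430, minus strand, between the genes of the kinase PRKCQ and of SFMBT2) held ACCACA at position 124, counted from 1 at its 5′ end. It was covered from base 101 onward by a RUNX2 peak of score 28.5, whose centre lay 95 bp from the letters, and an MTA1 peak of score 31.5 lay over the same place. The LOC105376233 window (chr9:115262494-115262793, minus strand) lies between TNC, which encodes the matrix protein tenascin C, and PAPPA, which encodes a protease of IGF-binding proteins. It held ACCACA at position 109, 54 bp from the centre of a RUNX2 peak of score 17.1, with an MTA1 peak of score 6.58. In the LOC105378072 window (chr6:155880894-155881193, plus strand, between NOX3 and the chromatin remodeller gene ARID1B) the letters began at position 268, 9 bp from the centre of a RUNX2 peak of score 16.1, and no MTA1 peak overlapped. The LINC03108 window (chr1:234980727-234981026, minus strand, between IRF2BP2 and TOMM20) lay whole inside a RUNX2 peak of score 46.5 and an MTA1 peak of score 20.7 and held neither form of the letters. Both proteins thus had peaks at 3 of these 4 promoters, with and without the letters.

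Over all desert windows, 80 overlapped a RUNX2 peak (2.75%, 2.19% to 3.41%) and 72 an MTA1 peak (2.48%, 1.94% to 3.11%), and 53 carried both kinds of peak. Promoters on chromosome 8 were not analysed here. Across noncoding promoters in and outside deserts these shares were 14.9% for RUNX2 and 15.1% for MTA1, and outside deserts alone 18.5% and 18.8% of 9920 windows. Peaks at a noncoding promoter were thus several times rarer in deserts in either list.

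The searched letters (both strands, which cannot overlap each other) were in 28 of the 80 desert windows with a RUNX2 peak (35.0%, 24.7% to 46.5%) and in 507 of the 2829 without (17.9%, 16.5% to 19.4%). The difference was 17.1 percentage points (7.42 to 28.1), beside 13.1% over all promoters of the table. At noncoding promoters outside deserts the order was the opposite, with 12.9% (11.4% to 14.5%) of windows with a RUNX2 peak and 16.1% (15.3% to 16.9%) of those without. Letters of the same composition in another order, TGGTGT or ACACCA, which can share bases with the searched ones, were in 13.8% of desert windows with a RUNX2 peak and 14.0% of those without. Outside deserts these control letters had the same order as the searched ones, at 9.70% with a RUNX2 peak and 14.1% without. The desert windows with a RUNX2 peak also had a higher median GC content, 51.3% against 42.3%, and its part in the difference was not tested. At noncoding promoters outside deserts the median GC content was 65.7% with a RUNX2 peak and 50.3% without, and its part was likewise not tested.

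Within those desert windows the letters were concentrated under the peak. Counting overlapping windows once left 73 windows, in which TGTGGT or ACCACA occurred 28 times in the 11.1 kb covered by a RUNX2 peak, or 2.52 per kb (1.67 to 3.64). In the 10.8 kb of the same windows outside the peak they occurred 7 times, or 0.649 per kb (0.261 to 1.34). The control letters occurred 4 times inside and 4 times outside, at 0.360 and 0.371 per kb. At noncoding promoters outside deserts the searched letters were at 0.549 per kb (0.470 to 0.638) inside RUNX2 peaks and 0.340 per kb (0.265 to 0.429) outside, and the control letters at 0.377 per kb inside and 0.262 outside. For the searched letters, the intervals of the inside rates of desert and other noncoding promoters did not overlap. Windows with a RUNX2 peak had a median GC content of 51.3% in deserts and 65.7% at the other noncoding promoters. The part of GC content in this contrast was not tested. A match of letters is a description of the window and does not show that it is bound.

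Deserts were poor in peaks on every chromosome. They made up 949 Mb, or 31.4% of the stretch between the first and the last protein-coding gene of each chromosome, a length that includes assembly gaps and centromeres. RUNX2 peaks numbered 6.75 per Mb in deserts and 26.6 per Mb elsewhere, a ratio of 0.254, and MTA1 peaks 3.90 and 18.8 per Mb, a ratio of 0.208. The ratio was below 1 on 23 of 23 chromosomes in both lists. For RUNX2 it ran from 0.0917 on chromosome 22 to 0.483 on chromosome 8, and for MTA1 from 0.0383 on chromosome 19 to 0.406 on chromosome 8.

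The share of a chromosome's RUNX2 peaks that lay in deserts ran from 2.13% on the gene-dense chromosome 19 to 18.3% on chromosome 8, and that of MTA1 peaks from 0.461% on chromosome 19 to 16.0% on chromosome 13. Chromosome 2 held the most desert peaks, 725 RUNX2 and 434 MTA1. The RUNX2 share was the higher of the pair on each chromosome. Counted over both lists together, RUNX2 peaks were 63.5% (62.5% to 64.4%) of desert peaks and 58.6% (58.3% to 59.0%) of the others, a difference of 4.83 percentage points (3.84 to 5.81) that had the same direction on 23 of 23 chromosomes. The lists were most unequal on chromosome 19, where 59 RUNX2 peaks and 10 MTA1 peaks lay in deserts. Of these, 42 RUNX2 and 9 MTA1 peaks lay in a single desert, that between ZNF254 and UQCRFS1.

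**Figure D1:**
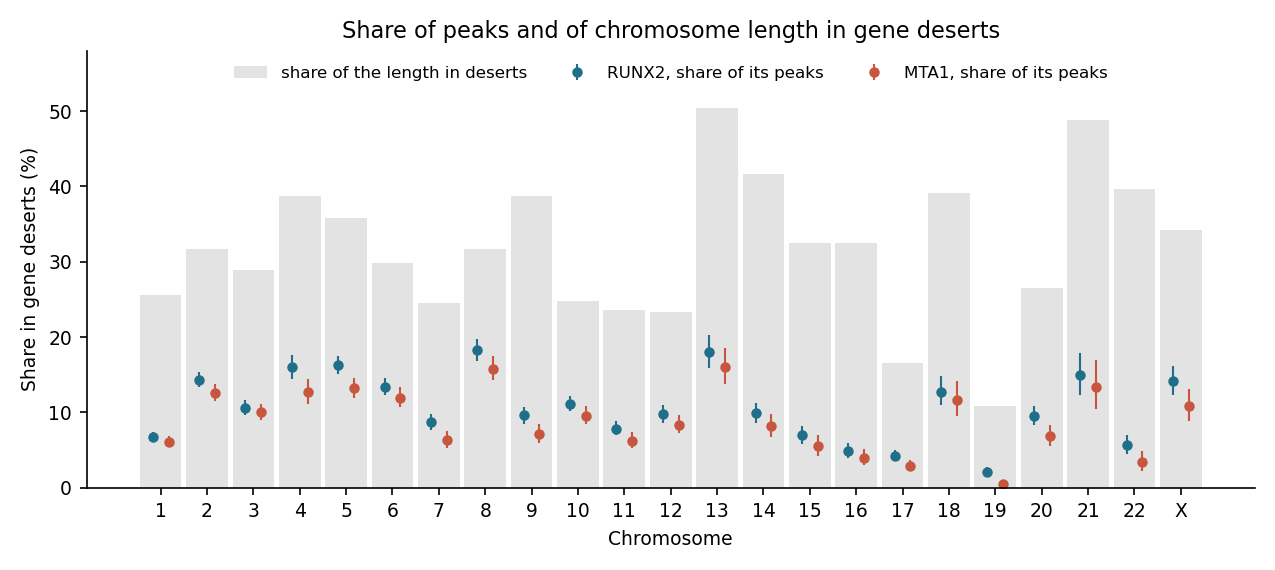
Share of the peaks of each list (points, with exact 95% intervals over peaks) and of the chromosome length (grey bars) that lay in gene deserts, in percent, by chromosome. Every point lies below the grey bar of its chromosome, and the RUNX2 share runs from 2.13% on chromosome 19 to 18.3% on chromosome 8.

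Desert peaks were lower in score and narrower than the others. The score is the authors' own, its scale was not stated, and it was compared only within a list. The median RUNX2 score was 5.22 in deserts and 6.77 elsewhere, a difference of -1.55 (-1.64 to -1.24), with the desert median lower on 21 of 23 chromosomes. The desert median is itself the most frequent score of the list, and with the 99 bp peaks, the narrowest, left out the difference was -0.73 (-0.78 to -0.52). The median MTA1 score was 6.58 against 7.66, a difference of -1.08 (-1.26 to -0.874), again lower on 21 chromosomes. The quartiles overlapped widely, from 4.87 to 10.2 for RUNX2 desert peaks and from 4.97 to 12.4 for the others, so the scores of the sets shared most of their range.

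The median width was 125 bp in deserts and 154 bp elsewhere for RUNX2 (-29 bp, -32.2 to -25.4) and 156 bp against 188 bp for MTA1 (-32 bp, -36.5 to -27.9). Each list has a narrowest width that many peaks share, 99 bp for RUNX2 and 116 bp for MTA1. Of the desert peaks 2635 RUNX2 peaks (40.8%, 39.6% to 42.0%, background over the whole list 31.7%) and 1308 MTA1 peaks (35.2%, 33.7% to 36.7%, background 26%) had exactly that width. The excess over the other peaks was 10.2 and 10.1 percentage points. Desert peaks were likewise richer in the scores that recur most. The most frequent RUNX2 score, 5.22, was carried by 20.8% of desert peaks and 8.73% of the others, and the most frequent MTA1 score, 5.85, by 11.1% and 3.69%.

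High scores were not missing from deserts, but the lists differed in how many there were. Among the 100 highest-scoring RUNX2 peaks 12 were desert peaks (12.0%, 6.36% to 20.0%), and among the 1000 highest 80 (8.0%, 6.39% to 9.86%). For MTA1 there were 2 of 100 (2.0%, 0.243% to 7.04%) and 19 of 1000 (1.9%, 1.15% to 2.95%). The RUNX2 share among its 1000 highest peaks was thus not far below its share of 10.5% in the whole list, while the MTA1 share dropped well under its 8.71%.

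RUNX2 and MTA1 peaks coincided less often in deserts. A peak was called overlapping when it shared at least 1 bp with a peak of the other list, which over the whole lists held for 45.4% of RUNX2 and 65.5% of MTA1 peaks. In deserts 2069 RUNX2 peaks overlapped an MTA1 peak (32.0%, 30.9% to 33.2%), against 46.9% of the others (46.5% to 47.4%), a difference of -14.9 percentage points (-16.1 to -13.7) that was negative on 23 of 23 chromosomes. In the MTA1 list 2070 desert peaks overlapped (55.7%) against 66.4%, a difference of -10.7 points (-12.4 to -9.06) that was negative on 22 of 23. Set beside the intergenic peaks within 100 kb of a gene alone, the differences were larger, at -19.0 points (-20.3 to -17.7) and -14.4 points (-16.1 to -12.6).

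Among peaks outside genes, the overlap fell with distance from the nearest protein-coding gene, also among desert peaks. For RUNX2 it was 34.6% at 100 to 200 kb (2935 peaks), 30.5% at 200 to 500 kb (2394 peaks), 29.0% at 500 to 1000 kb (865 peaks) and 27.5% beyond 1000 kb (265 peaks, 22.3% to 33.3%). For MTA1 the same steps gave 61.6%, 53.6%, 48.2% and 39.1% (184 peaks beyond 1000 kb, 32.0% to 46.6%). The step at the 100 kb limit was small by comparison and went upward. RUNX2 peaks at 90 to 100 kb overlapped in 37.0% (508 peaks) and those at 100 to 110 kb in 39.6% (452 peaks), and MTA1 peaks in 59.4% (315 peaks) and 62.0% (292 peaks). The large drop lay nearer to the genes. Within 10 kb of one 64.3% of RUNX2 peaks overlapped, at 10 to 50 kb 39.1% and at 50 to 100 kb 36.8%, and for MTA1 these values were 75.1%, 63.8% and 62.1%. Intergenic peaks at 10 to 100 kb were thus close to the desert peaks at 100 to 200 kb. Peaks inside protein-coding genes overlapped in 44.0% (RUNX2) and 63.6% (MTA1), below those within 10 kb of a gene.

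**Figure D2:**
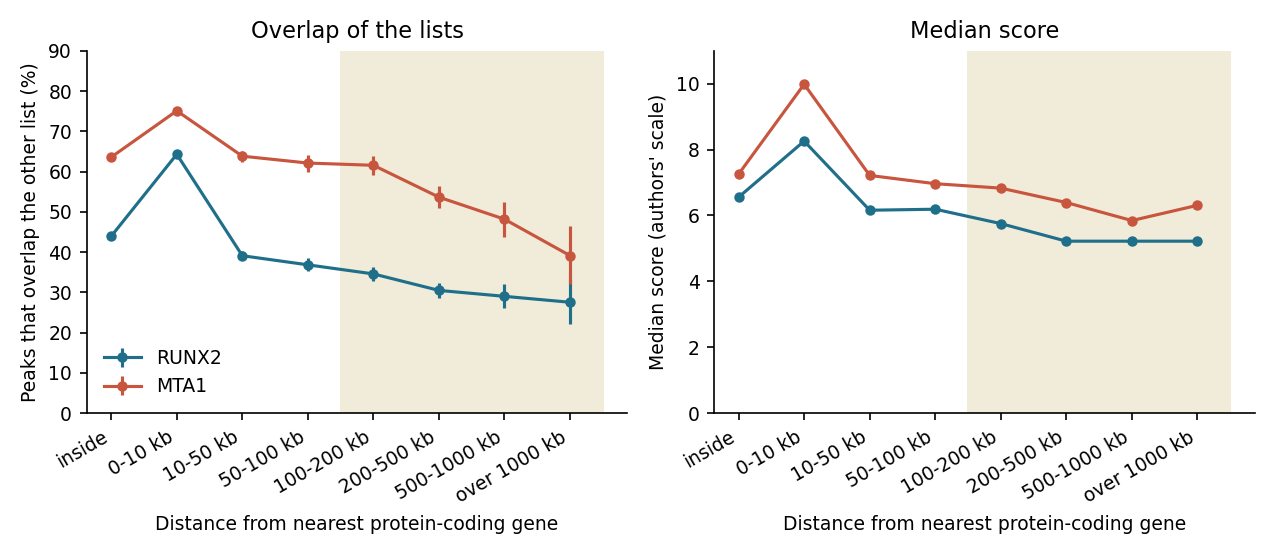
Left, percent of peaks that overlap a peak of the other list (with exact 95% intervals), and right, median score on the authors' scale, by distance from the nearest protein-coding gene, with gene deserts shaded. Outside genes the RUNX2 overlap runs from 64.3% within 10 kb to 27.5% beyond 1000 kb, and the MTA1 overlap from 75.1% to 39.1%. Inside genes they are 44.0% and 63.6%.

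Just inside the limit, a RUNX2 desert peak lay 100008 bp from VCX2 (chrX:8069887-8069985, score 5.22), and just outside it one lay 99996 bp from CEBPB (chr20:50292583-50292789, score 5.10), the gene of a leucine zipper transcription factor. That site shows how fine the line is. The MTA1 peak that overlaps it (chr20:50292597-50292888, score 15.7) has its centre 100052 bp from CEBPB and so is a desert peak, while the RUNX2 peak is not. The other peaks closest to the limit lay near FRK and PLET1 (inside, scores 3.67 and 4.84) and SLC7A11 and GPR139 (outside, 5.22 and 3.67) in the RUNX2 list. In the MTA1 list they lay near TRIM27 and TMPRSS5 (inside, 4.99 and 5.33) and TMTC3, ANAPC10 and UTP18 (outside, 27.6, 5.76 and 5.33).

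Because overlap rises with score, the peaks of each list were divided into 10 groups of rising score, equal scores staying together. RUNX2 desert peaks overlapped less often than the others in 10 of 10 groups, from 6.37% against 9.44% in the lowest to 35.0% against 48.2% in group 6 and 85.1% against 91.1% in the highest. Equal scores made the groups unequal in size. Group 4 held only 26 RUNX2 desert peaks, and its intervals overlapped, at 23.1% (8.97% to 43.6%) against 37.7% (33.3% to 42.2%). With each group given its weight in the whole list, the RUNX2 overlap was 36.9% in deserts and 46.3% elsewhere, a difference of -9.42 points instead of -14.9. MTA1 desert peaks overlapped less often in 7 of 10 groups, with 92.3% against 96.4% in group 9, and in the highest group 99.3% and 99.1% overlapped. The weighted MTA1 values were 62.4% and 65.9%, a difference of -3.51 points. At like scores the difference was thus smaller in both lists, and more so in the MTA1 list.

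The widest gap in the MTA1 list, 31.8% against 48.7% in group 4, was at the group that contains its most frequent score. That score made up 72.6% of the desert peaks of the group and 40.1% of the others. Peaks at exactly that score overlapped in 23.5% of desert cases (19.5% to 27.9%) and 31.9% of the others (29.5% to 34.4%), and the remaining peaks of the group in 53.8% (45.7% to 61.8%) and 59.9% (57.8% to 62.0%). RUNX2 peaks at exactly 5.22 overlapped in 11.3% (9.66% to 13.1%) and 16.4% (15.4% to 17.5%). At these most frequent scores the desert peaks overlapped less often in both lists.

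**Figure D3:**
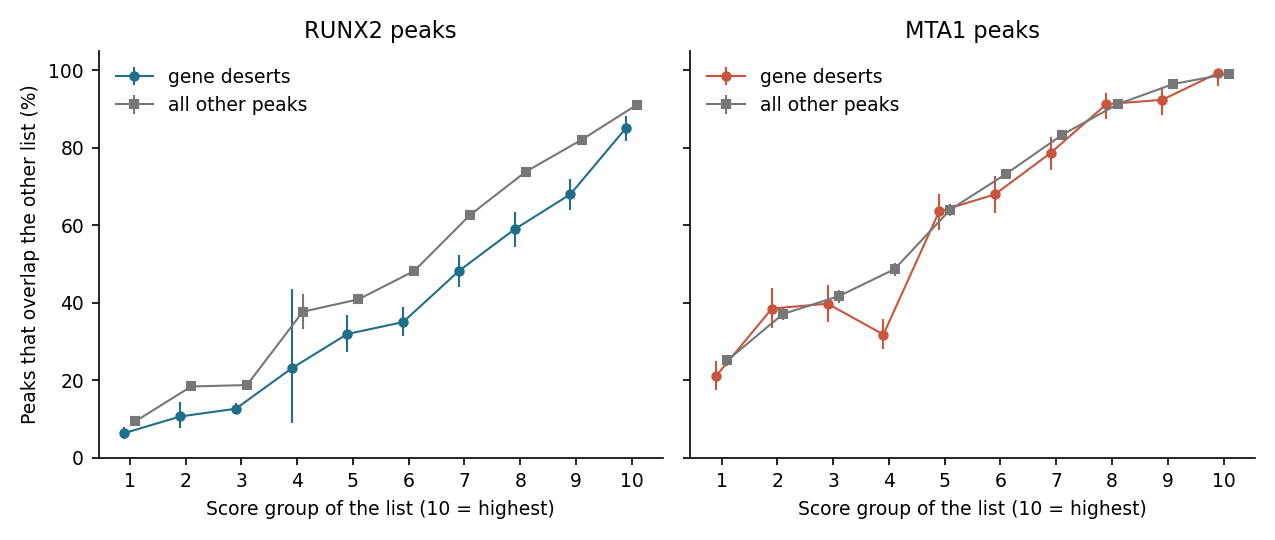
Percent of RUNX2 (left) and MTA1 (right) peaks that overlap a peak of the other list in 10 groups of rising score, for gene deserts (coloured) and all other peaks (grey), with exact 95% intervals. The RUNX2 desert line stays below the grey line in 10 of 10 groups, while the MTA1 lines run close together in several groups, such as the highest at 99.3% and 99.1%, and lie apart in group 4 (31.8% and 48.7%) and group 9 (92.3% and 96.4%).

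Where desert peaks did overlap, their scores rose together less closely than elsewhere. Spearman's rho between the RUNX2 and the MTA1 score was 0.351 over 2090 overlapping pairs in deserts and 0.459 over 26346 pairs elsewhere, as a description over peaks of the same pair of libraries. No interval of rho was computed. Fewer desert peaks lay in the highest score group, 7.69% against 10.3% (RUNX2) and 3.66% against 10.6% (MTA1), and the part of this in the difference was not tested.

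The strongest desert site of the series was shared by both lists. Between CD83, which encodes a surface protein of mature dendritic cells, and JARID2, which encodes a cofactor of the Polycomb complex PRC2, a RUNX2 peak at chr6:14270873-14271390 had a score of 101 and ranked 3 in its whole list. The MTA1 peak over it (chr6:14271007-14271382) had a score of 79.5 and ranked 6. The centre lay 134 kb from CD83 and in no annotated noncoding gene. It was the only site among the 10 highest desert peaks of both lists.

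The next RUNX2 desert peaks by score were at chr1:218705924-218706714, 262 kb from the growth factor gene TGFB2 (score 89.5), then between MED30 and EXT1 (86.7), SYT10 and ALG10 (83.8), CALB1 and TMEM64 (82.9), and SYK and AUH (82.1). EXT1 encodes a polymerase of heparan sulfate, and SYK a tyrosine kinase of immune receptor signalling. Peaks between TBL1XR1 and KCNMB2 (78.7), FAM98A and CRIM1 (77.3), RASSF10 and BMAL1 (76.6), and LOC124903317 and CDKN3 (76.6) completed the first 10, and that of FAM98A and CRIM1 stood farthest out, 901 kb from CRIM1. Each of the 10 overlapped an MTA1 peak, whose scores ran from 10.0 to 79.5.

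The MTA1 desert peaks that followed were at chr1:234724129-234724449 between IRF2BP2 and TOMM20 (67.0), inside the long noncoding RNA gene LINC01132, then between LYZL2 and ZNF438 (52.8) and RIOK2 and RGMB (52.7). IRF2BP2 encodes a transcriptional corepressor, and RGMB a BMP co-receptor. Further peaks lay near SLC1A4 (49.4), TNP1 (49.3), CYLC2 (47.2), CCND1 (47.0), UBE2V2 (46.2) and FGF1 (46.0). CCND1 encodes cyclin D1, a driver of the G1 phase, and its peak was 144 kb away. Each of the 10 overlapped a RUNX2 peak, so the highest-scoring desert peaks of either list were shared sites, while 32.0% and 55.7% of all desert peaks were. High-scoring peaks outside deserts were mostly shared too, 91.1% (RUNX2) and 99.1% (MTA1) in the highest score group.

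The peaks fell into 1150 (RUNX2) and 955 (MTA1) of 1696 deserts, each named here by the protein-coding genes on either side, of which 1650 lay between 2 genes and the others ran to a chromosome end. Both lists had peaks in 899 deserts, RUNX2 alone in 251, MTA1 alone in 56 and neither in 490. The part of a desert more than 100 kb from both genes, its interior, had a median length of 0.219 Mb, and the number of peaks rose with it, with Spearman's rho of 0.629 for RUNX2 and 0.571 for MTA1 over the deserts. The counts of the 2 lists had a rho of 0.814. These are descriptions over deserts of 1 pair of libraries, and length is common to both counts. No few deserts dominated, as the 10 with most peaks held 5.77% of RUNX2 and 5.38% of MTA1 desert peaks.

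The desert with most peaks was that between MYC, the oncogene of a growth-promoting transcription factor, and GSDMC, which encodes a gasdermin, on chromosome 8. It held 72 RUNX2 and 39 MTA1 peaks in an interior of 1.76 Mb, which is 40.9 and 22.1 peaks per Mb beside 6.75 and 3.90 over all deserts. Of these, 28 RUNX2 and 28 MTA1 peaks overlapped, 38.9% (27.6% to 51.1%) and 71.8% (55.1% to 85.0%), and the highest scores were 64.1 and 43.5. The peaks were packed on the MYC side. A run of 13 RUNX2 peaks, each within 10 kb of the next, spanned 51.1 kb, the longest run in any desert, and 27 RUNX2 and 21 MTA1 peaks lay in or within 3 kb of PVT1, the long noncoding RNA gene next to MYC.

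The next deserts by number of peaks held fewer than that beside MYC. The first of them, between LOC124902528 and ANKRD30A, held 60 peaks of both lists and is described below. That between KLF4, which encodes a transcription factor of epithelia and stem cells, and ACTL7B held 35 RUNX2 and 22 MTA1 peaks, of which 10 and 10 overlapped. That between RPS24 and ZMIZ1 held 37 and 19 (15 and 16 overlapping), and that between FOXL1, which encodes a forkhead factor of the gut mesenchyme, and C16orf95 held 34 and 21 (18 and 19 overlapping). The FOXL1 desert was dense, with 65.5 RUNX2 and 40.4 MTA1 peaks per Mb of its interior of 0.519 Mb. The deserts of LOC105372073 and PIK3C3 (54 peaks of both lists) and of ZNF254 and UQCRFS1 (51), also described below, came next. Those of IGFBP3 and TNS3 (29 and 14 peaks), TBL1XR1 and KCNMB2 (28 and 15), and ZEB2 and ACVR2A (25 and 18) followed. Of these genes IGFBP3 encodes a carrier of insulin-like growth factors, TBL1XR1 a subunit of the NCoR corepressor complex and ZEB2 a factor of epithelial-mesenchymal transition. In the last of the 11, between BAMBI, which encodes a decoy receptor of TGF-beta signalling, and LYZL1, MTA1 peaks outnumbered RUNX2 peaks, 23 against 19.

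In 2 of the deserts with most peaks few RUNX2 peaks met an MTA1 peak. Between LOC124902528 and ANKRD30A on chromosome 10 there were 37 RUNX2 and 23 MTA1 peaks, and 4 of each overlapped. Their median scores were 4.94 and 4.70, and 23 and 15 of them had the narrowest width. Between ZNF254 and UQCRFS1 on chromosome 19 there were 42 RUNX2 and 9 MTA1 peaks, 5 of each overlapping, which was 11.9% of the RUNX2 peaks and 55.6% of the MTA1 peaks. These lay in the 1.51 Mb toward UQCRFS1, which encodes the Rieske protein of respiratory complex III, and 1 RUNX2 peak there had a score over 25, namely 75.3. The first lay 3450 kb from ZNF254, and how much of the stretch before it can be mapped was not analysed here. The desert between LOC105372073 and PIK3C3 was long (3.98 Mb) and held 34 RUNX2 and 20 MTA1 peaks, of which 10 and 9 overlapped.

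**Figure D4:**
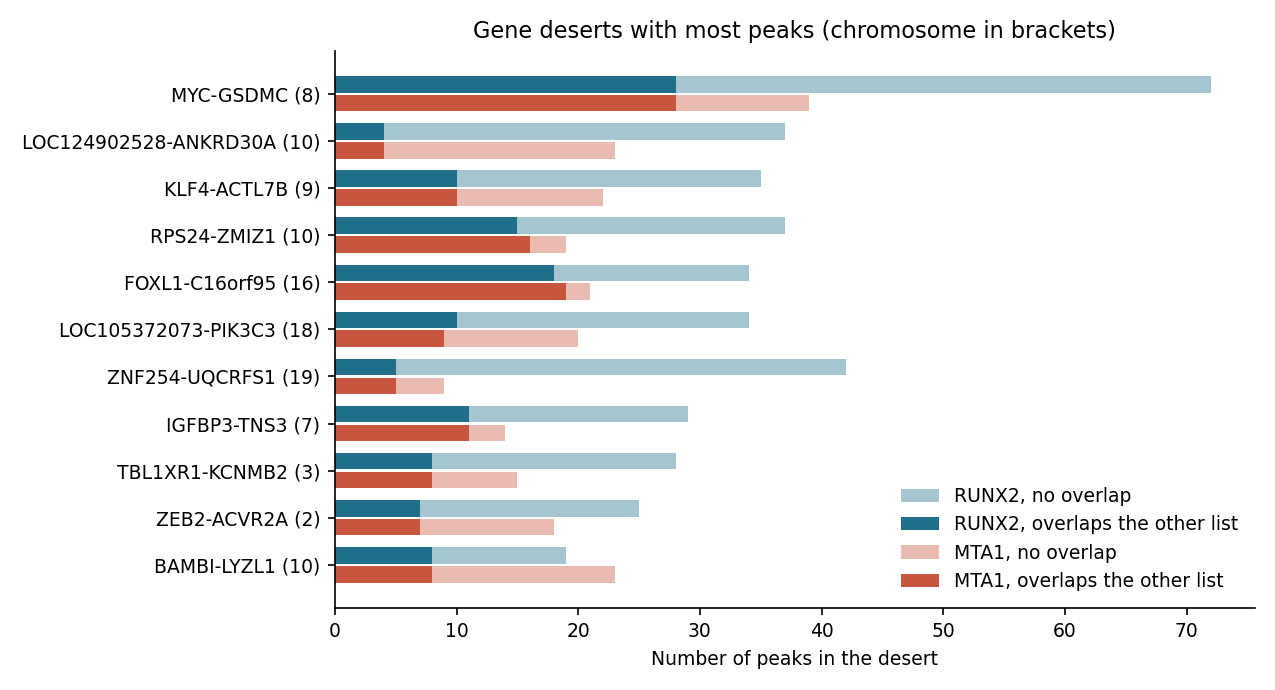
Number of RUNX2 and MTA1 peaks in each of the 11 gene deserts with most peaks, with the part that overlaps the other list in the darker shade. MYC-GSDMC stands out with 72 RUNX2 and 39 MTA1 peaks, and in ZNF254-UQCRFS1 only 5 of 42 RUNX2 peaks overlap an MTA1 peak.

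The 5 longest deserts held few peaks. There were 5 RUNX2 and 2 MTA1 peaks between LINC02798 and H3-7 on chromosome 1, the longest at 22.2 Mb, 5 and 0 between BAGE5 and TUBA3C on chromosome 13, and 3 and 1 between LOC112268044 and SPATA31A5 on chromosome 9. The deserts between LOC124905466 and OR11H12 on chromosome 14 and between LOC101060588 and LOC124903442 on chromosome 15 held 0 peaks of either list. How much of these stretches is unsequenced or cannot be mapped was not analysed here.

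How far the lists met differed between deserts. Among 93 deserts with at least 15 RUNX2 peaks, a choice made after the values were seen, the median share of RUNX2 peaks that overlapped was 33.3%. In 7 of them no RUNX2 peak overlapped an MTA1 peak: B3GAT1 to the chromosome end (15 peaks), GALR1 to SALL3 (15), HS6ST1 to RAB6C (19), MKI67 to MGMT (17), SPDYE21 to AUTS2 (15), TAFA5 to BRD1 (19) and TCERG1L to PPP2R2D (16). These deserts held few MTA1 peaks to meet, 4, 1, 6, 1, 2, 2 and 1 in the same order. A count of 0 of 19 still allows a share of up to 17.6% (exact 95% interval). Of their neighbours MKI67 encodes the proliferation marker Ki-67 and MGMT a DNA repair enzyme. The RUNX2 peaks of these 7 were weak, with median scores from 4.42 to 5.11 and none above 9.39. In the desert between VRK1 and BCL11B, which encodes a transcription factor of T cells, 1 of 28 overlapped, 23 of the 28 had the narrowest width and none had a score over 8.39.

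At the other end, at least 50% of RUNX2 peaks overlapped in 18 of the 93 deserts. Beside SLC1A4, a neutral amino acid transporter, 12 of 15 did, between NT5C1B-RDH14 and OSR1 14 of 21, between UBE2V2 and CLXN 13 of 20, and between IRF2BP2 and TOMM20 14 of 22. The peaks of the last were strong, with a median RUNX2 score of 22.9 against 5.22 over all desert peaks, and 9 RUNX2 and 10 MTA1 peaks followed each other in 40.2 kb. In these 4 deserts the median RUNX2 score lay above that of all desert peaks, at 9.67 to 22.9, and in the 7 without overlap it lay below.

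**Figure D5:**
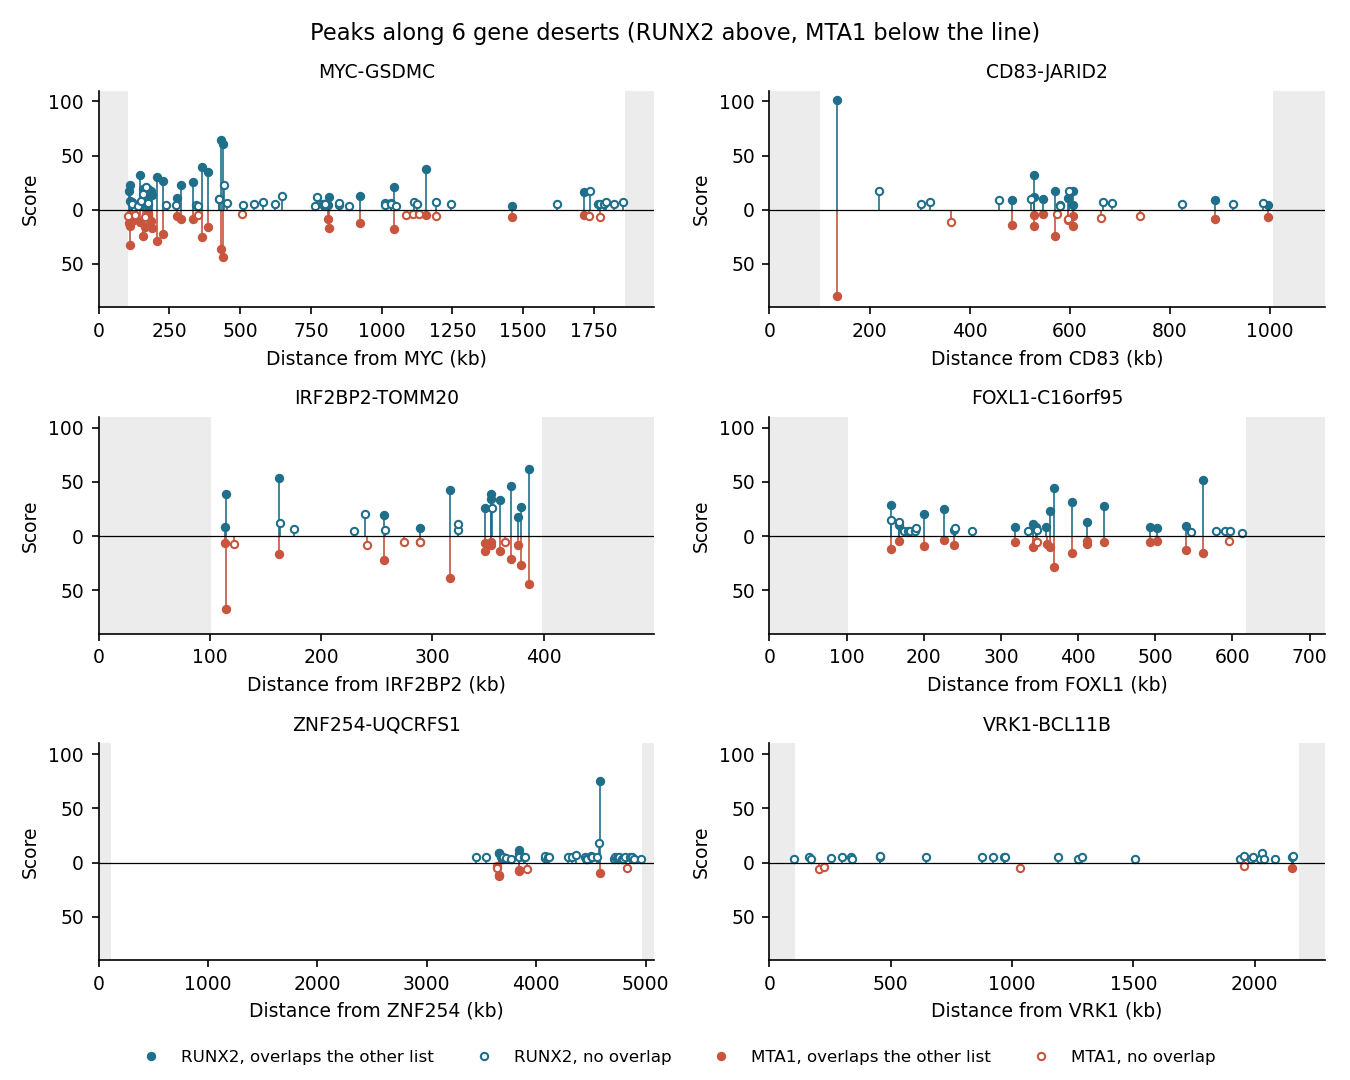
Score of each RUNX2 peak (upward) and MTA1 peak (downward) against its distance in kb from the gene on the left, in 6 gene deserts, with filled points for peaks that overlap the other list and the 100 kb next to each gene in grey. Strong shared peaks line up in MYC-GSDMC, IRF2BP2-TOMM20 and FOXL1-C16orf95, and in VRK1-BCL11B 28 RUNX2 peaks of score up to 8.39 meet 5 MTA1 peaks with 1 overlap.

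A list of 34 genes was looked up. It was meant for genes beside deserts with distant enhancers and for other regulators, but it also held the surface protein gene CD83. Of the 34 genes, 29 adjoined 41 deserts, 35 of which held RUNX2 and 34 MTA1 peaks, at 12.3 and 7.21 peaks per Mb of interior beside 6.75 and 3.90 over all deserts. The list was made with earlier results of these data known and includes MYC, KLF4 and CD83, so the higher rate is no test. The rate over all deserts also takes in the longest ones, which held few peaks. The highest counts after MYC and KLF4 were 24 RUNX2 and 16 MTA1 peaks beside CD83, 21 and 17 between TRIB1 and LRATD2, and 20 and 15 between SLC35B3 and TFAP2A. TFAP2A encodes AP-2 alpha, a factor of ectoderm and breast epithelium. On either side of SOX9, the chondrocyte and epithelial factor that lies between long deserts, there were 20 and 14 peaks toward KCNJ2 and 18 and 13 toward SLC39A11, and 11 and 10 of the RUNX2 peaks overlapped.

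Beside other genes of the list few RUNX2 peaks overlapped. Between TBX3 and MED13L 2 of 15 RUNX2 peaks did (13.3%, 1.66% to 40.5%), while both of the 2 MTA1 peaks there did. Between SHH, the hedgehog ligand of limb and neural patterning, and RNF32 the counts were 3 of 16 RUNX2 (18.8%, 4.05% to 45.6%) and 3 of 6 MTA1 peaks. For RUNX2, both intervals include the 32.0% of all desert peaks, so these counts are too small to set the loci apart. The deserts of SOX11, a factor of developing neurons, held 12 and 7 RUNX2 peaks and 3 and 2 MTA1 peaks with 0 overlaps and no score above 7.48. The RUNX2 intervals there reach 26.5% and 41.0%. The desert between IRX3 and IRX5, homeobox genes of the same cluster, held no peak of either list in 0.444 Mb.

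Desert peaks lay at noncoding genes about as often as other intergenic peaks. Within 3 kb of a noncoding gene or inside it were 38.8% of RUNX2 desert peaks (37.6% to 40.0%) and 40.9% of MTA1 desert peaks (39.3% to 42.5%), with a background over all peaks outside protein-coding genes of 37.1% and 38.1%. Against the intergenic peaks within 100 kb of a gene the differences were 2.14 (0.805 to 3.48) and 3.46 (1.73 to 5.21) percentage points. Those nearer peaks were not alike, with 33.8% of RUNX2 and 34.1% of MTA1 peaks within 10 kb of a gene but 41.3% and 44.5% at 50 to 100 kb, above the desert values. These genes with their margins cover 25.8% of the desert length. Long noncoding RNA genes made up nearly all of this, with 35.6% of RUNX2 and 37.6% of MTA1 desert peaks, and pseudogenes 2.45% and 2.42%.

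After PVT1, the noncoding genes with most desert peaks were MIR3681HG (24 RUNX2 and 13 MTA1 peaks), LOC105370777 (19 and 13), LOC105373456 (17 and 14) and LINC-PINT (15 and 12), a long noncoding RNA gene induced by p53. IGH, the immunoglobulin heavy chain locus, came next with 20 RUNX2 and 4 MTA1 peaks, none with a score above 9.98. It counts as a desert here because its segments are not annotated as protein-coding. MEF2C-AS1 (14 and 8), CFAP418-AS1 (10 and 12), LOC105376214 (13 and 7) and LOC105369844 (11 and 9) followed. Ribosomal RNA genes, whose copies are nearly identical so that reads cannot be placed with certainty, held 13 RUNX2 and 6 MTA1 peaks, and the desert that contains them on chromosome 21 had 26 RUNX2 peaks with scores up to 69.8.

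Of 1558 miRNA hairpins in the annotation 140 lay in deserts, and within 1 kb of them lay RUNX2 peaks for 8, MTA1 peaks for 4 and peaks of both lists for 3. These were 5.71% (2.50% to 10.9%) and 2.86% (0.784% to 7.15%) of desert hairpins, beside 14.1% and 12.3% of all hairpins. Hairpins on chromosome 8 were not analysed here. Those with both were MIR5087, MIR4280 and MIR10396A, and the last lies among the ribosomal RNA copies.

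Desert peaks were also spaced more widely. The median distance to the next peak of the same list was 16.0 kb for RUNX2 desert peaks and 7.58 kb for the others, and 24.6 kb against 8.81 kb for MTA1. A neighbour within 10 kb was found for 39.1% (37.9% to 40.3%) of RUNX2 desert peaks against 58.7% of the others and for 34.2% (32.6% to 35.7%) of MTA1 desert peaks against 53.7%. Runs of 5 or more peaks, each within 10 kb of the next, numbered 35 for RUNX2 and 15 for MTA1. Besides those beside MYC and IRF2BP2, they included 9 RUNX2 peaks in 22.7 kb between TLE3 and UACA and 8 MTA1 peaks in 29.3 kb between MYEOV and CCND1.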

How the data were processed

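CUT&Tag libraries of untreated MDA-MB-231 cells were made with an antibody against RUNX2 or MTA1, 1 library each. Antibody suppliers differ between the labels and the study's methods, and the labels describe end repair and adaptor ligation, which is unusual for CUT&Tag. The submitters' processing notes name CASAVA 1.4, Bowtie 0.12.8, MACS and MACS2, without roles, threshold or control. For each library the authors deposited 1 peak list, in which every peak has a score of unstated scale, so the score was compared within its own list only. Depth is unknown.

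The notes name the build hg19. Peaks overlapped RefSeq GRCh38.p14 promoter windows in 12.6% (RUNX2) and 19.1% (MTA1) at the listed positions and in 0.768% and 0.825% after a move of 100 kb, so the GRCh38 annotation was used, with 19974 protein-coding genes among 59098. Positions are 1-based. Peaks on chromosomes 1 to 22 and X were used, and 23 RUNX2 and 25 MTA1 peaks on other sequences were left out. No genome sequence was used here, and promoter sequences came from the RefSeq table.

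Members and gene lists were chosen with earlier results of these data known. Named were the 10 deserts with most peaks of both lists and the 5 with most of each (11 in all), the 10 highest-scoring desert peaks per list, the 3 peaks on each side of the limit, the 5 longest deserts, the 10 noncoding genes with most desert peaks, and deserts of the 34 listed genes. Shares carry exact (Clopper-Pearson) 95% intervals, their differences Newcombe intervals and rates per kb exact Poisson intervals. Differences of medians carry intervals from order statistics. No p-value was computed, since peaks are not replicates. Distance and overlap steps were checked on simulated data. Alternatives were limits of 50 and 200 kb, all gene types, near intergenic peaks only, peaks at or above the median score, stricter overlaps (50% of both peaks, centres within 200 bp), weighting by score group, leaving out the 5 richest deserts or the narrowest peaks, and merging within 500 bp. The versions were Python 3.11.15, scipy 1.17.1, matplotlib 3.10.9, numpy 2.4.6 and pandas 2.3.3.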

Additional observations from a re-analysis of the deposited data

Results flagged for a closer look

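Mitochondrial DNA, which took no part in the comparisons, carried 17 RUNX2 peaks and 15 MTA1 peaks. A control library to set them against was not analysed here.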

How the results depend on the processing

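Among the 66 recomputed values, those of the share of peaks in deserts have no direction, and none of the others reversed. Deserts stayed poorer in peaks, and their peaks lower in score, narrower and less often overlapping. Of the 66 values 19 stayed within the 95% interval of the reported value and 47 moved beyond that interval, which covers counting error only. The changed definitions of a desert or of the peaks used move the values by construction. No paired analysis was possible because each antibody has 1 library, and leaving out a replicate was not possible for the same reason.

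A limit of 50 kb gave desert shares of 16.1% (RUNX2) and 13.6% (MTA1), density ratios of 0.306 and 0.251, an MTA1 overlap difference of -8.65 points, and RUNX2 differences of -1.03 in median score and -24 bp in width. A limit of 200 kb gave shares of 5.71% and 4.83%, ratios of 0.195 and 0.164, overlap differences of -16.4 and -15.2 points, width differences of -34.5 and -38 bp and an MTA1 score difference of -1.41. With no gene of any type within 100 kb, the overlap differences were -16.3 and -17.5 points and the width differences -46 and -41 bp. Against intergenic peaks within 100 kb of a gene they were -19.0 and -14.4 points and -37 and -47 bp, with score differences of -1.72 and -1.91.

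Peaks at or above the median score gave shares of 9.04% and 6.92%, ratios of 0.217 and 0.162, overlap differences of -17.2 and -6.55 points and a RUNX2 width difference of -21 bp. Without the narrowest peaks the shares were 9.07% and 7.62% and the ratios 0.217 and 0.180, the MTA1 overlap difference was -8.40 points and the RUNX2 score difference -0.73. Merging within 500 bp gave shares of 10.7% and 9.01% and ratios of 0.261 and 0.216. Without the 5 deserts with most peaks the RUNX2 ratio was 0.247. Requiring that 50% of both peaks be shared gave a RUNX2 difference of -11.9 points, and weighting by score group -9.42 and -3.51 points.

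The main limits are the single library per antibody, the unknown depth and threshold, the unstated scale of the score, the desert length that includes unsequenced stretches, and an annotation whose build differs from that in the processing notes.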
